A study of Mus musculus with 2 samples.

Results

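The serine and one-carbon synthesis genes examined here are Phgdh, Psat1, Psph, Shmt1, Shmt2, Mthfd1, Mthfd2 and Mthfd1l, 8 of the 27999 genes listed in each library. They were chosen from earlier results on these libraries, in which enzymes of this pathway stood out in metastatic cells, so the levels below are given as a description and without a test. Cells make serine from the glycolytic intermediate 3-phosphoglycerate in successive steps run by Phgdh, Psat1 and Psph. Shmt1 in the cytosol and Shmt2 in the mitochondria then split serine into glycine and a one-carbon unit carried by folate. Mthfd2 with Mthfd1l (mitochondrial) pass that unit on as formate, and Mthfd1 (cytosolic) returns it to folate for the synthesis of purines and thymidylate. Dividing or activated cells are known to draw on this route.

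Single-cell transcriptomes (10x Genomics) were collected from dissociated, unsorted lungs of female FVB/NJ mice. At 10 weeks of age each had received Met-1, a line grown from a murine breast tumour, by tail vein. A lung taken at week 1 gave the low-burden library and a lung taken at week 3 the high-burden one, with 1 mouse for each, and the labels give both the same batch. Week, burden, mouse and depth therefore cannot be told apart, and no p-value can be given. The model seeds lungs from the blood with a cultured line, and both mice carried injected cells, so neither library is of an uninjected lung.

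After the limits on detected genes and mitochondrial share, 2473 of 2668 low-burden cells and 3033 of 3121 high-burden cells were kept, with median depths of 4073 and 13998 unique molecular identifiers (UMIs) per cell. The libraries shared 11 cell barcodes. Cells were placed in classes by marker gates, which left 308 low-burden cells (12.5%) and 350 high-burden cells (11.5%) without a class. Counting each marker once per library over 30 class pools, 209 of 225 were highest in their own class. The gates used these same markers, so this count is not a separate check of the classes. The metastatic-like class held 1326 high-burden and 0 low-burden cells, and all 9 of its markers, which were also taken from earlier results on these libraries, were highest there. Of the epithelial genes, Epcam was at 1.97 counts per 1000000 UMIs (CPM) in these cells and 24.5 CPM in other gated high-burden cells. Krt8 was likewise lower in them, at 2.34 and 43.8 CPM, while Krt18 was at 66.7 and 52.4 CPM. The PYMT transgene was at 64.9 CPM in metastatic-like and 63.4 CPM in all other gated high-burden cells, so it did not separate them and was not used in the gate.

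In the GENCODE M21 annotation of GRCm38, the assembly of mm10, the 8 protein-coding genes lie apart from one another. Phgdh is at chr3:98313170-98339990, Psat1 at chr19:15904678-15947337, Psph at chr5:129765558-129787449, Shmt1 at chr11:60788104-60811718 and Shmt2 at chr10:127517123-127522444, each on the minus strand. Mthfd2 is at chr6:83305691-83325908 on the minus strand, and Mthfd1 at chr12:76255298-76319803 and Mthfd1l at chr10:3973118-4167081 are on the plus strand. Psph, Shmt1 and Shmt2 overlap genes on the other strand (Cct6a, Smcr8 and Ndufa4l2), and Mthfd2 and Mthfd1l overlap predicted genes on their own strand. The promoters of Phgdh and Psat1 are shown because these enzymes act in sequence yet differed in 1 class. Low-burden alveolar macrophage-like cells had the highest low-burden Phgdh level and a Psat1 level close to the median over classes. Each window runs from 250 bases before to 50 bases after the start site given by RefSeq (GRCm38.p6), at chr3:98339920-98340219 and chr19:15925010-15925309 on the minus strand, and capitals mark the CCAAT box (CCAAT, or ATTGG on the other strand). The Psat1 start lies inside the longer GENCODE gene.

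Phgdh promoter: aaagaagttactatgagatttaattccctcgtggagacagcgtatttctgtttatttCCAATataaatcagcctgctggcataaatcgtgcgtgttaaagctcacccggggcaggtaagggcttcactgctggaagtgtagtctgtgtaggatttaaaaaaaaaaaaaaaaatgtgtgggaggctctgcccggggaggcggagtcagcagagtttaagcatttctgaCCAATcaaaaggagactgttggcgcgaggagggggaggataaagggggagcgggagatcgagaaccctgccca

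Psat1 promoter: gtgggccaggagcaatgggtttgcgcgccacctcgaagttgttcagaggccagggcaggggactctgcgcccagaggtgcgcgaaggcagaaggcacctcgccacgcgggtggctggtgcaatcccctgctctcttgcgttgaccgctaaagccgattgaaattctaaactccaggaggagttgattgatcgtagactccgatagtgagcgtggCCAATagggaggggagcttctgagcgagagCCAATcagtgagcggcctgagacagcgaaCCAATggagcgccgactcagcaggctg

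The Phgdh window held 2 CCAAT boxes, starting 193 and 23 bases before the start site, and the Psat1 window held 3, of which the nearest started 6 bases before it. Over the members, for which the table gives 9 windows (2 for Psat1), 6 held the box on either strand, against 37.4% of all 32851 windows of the same length. Among the 6, that of Mthfd2 lies 8407 bases from the start of the gene in RefSeq, and that of Mthfd1 826 bases. An E-box (CACGTG) was in 0 of the 9 windows and in 7.15% of all, and the core of the amino acid response element (TGATGNAA, either strand) in 0 of 9 and in 3.97% of all. These are matches of letters only, and binding was not measured.

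To ask where the genes were expressed at high burden, metastatic-like cells were compared with the 1357 other gated cells of the same library. Every member was higher in metastatic-like cells, with an interval that lay above equal levels, and Phgdh had the largest ratio. Phgdh, the first enzyme of serine synthesis, was at 352 CPM (95% Poisson interval 346 to 359) in metastatic-like and 44.6 CPM (41.3 to 48.2) in other cells, a 7.89-fold difference (log2 ratio 2.98, 2.87 to 3.09). The next enzymes of that arm differed less. Psat1, the transaminase, was at 60.1 against 34.5 CPM (log2 ratio 0.80, 0.66 to 0.95), and Psph, the phosphatase that releases serine, at 49.7 against 23.5 CPM (1.08, 0.91 to 1.25).

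The one-carbon enzymes followed the same direction. Among the hydroxymethyltransferases, cytosolic Shmt1 was at 19.3 against 10.5 CPM (log2 ratio 0.88) and mitochondrial Shmt2 at 60.0 against 31.2 CPM (0.95). Cytosolic Mthfd1 had the smallest ratio, with 31.6 against 20.4 CPM (0.63, 0.45 to 0.82). In the mitochondrial arm, Mthfd2 was at 83.3 against 41.8 CPM (0.99) and Mthfd1l, which makes formate, at 30.4 against 10.3 CPM (1.57, 1.32 to 1.82). In all, 3 of the 8 members (Phgdh, Mthfd1l and Psph) were 2-fold or more higher, beside 13.4% of the 12599 genes with at least 50 UMIs over both pools. The members were chosen on this contrast, so nothing is read from that count. Their median log2 ratio was 0.97 and that of all these genes 0.10, and scaling by the median of ratios instead takes 0.13 off each value. Taking only metastatic-like cells below their median depth brought the members' median to 0.63, Phgdh to 2.52 and Mthfd1 to 0.12 (−0.13 to 0.37). With all cells thinned to 3000 UMIs, Mthfd1 was at 0.14 (−0.26 to 0.55), an interval that included equal levels. Thinning also weighs cells alike and leaves fewer UMIs, and the parts of depth, weight and division in this value were not tested.

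**Figure D1:**
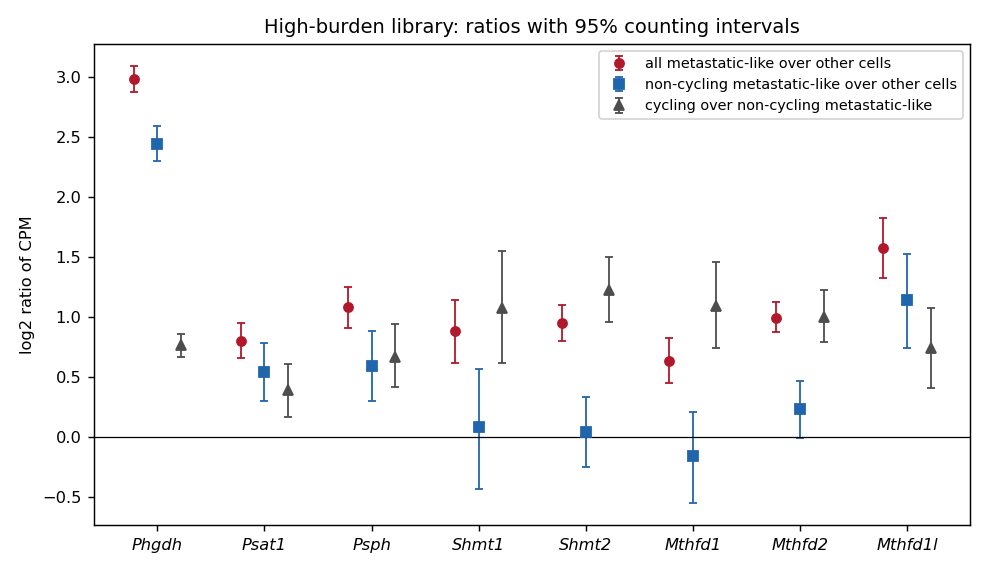
Log2 ratios of CPM in the high-burden library for each gene (points, with 95% counting intervals as bars): all 1326 metastatic-like cells over the 1357 other gated cells, the 208 non-cycling metastatic-like cells over the same cells, and the 634 cycling over the 208 non-cycling metastatic-like cells. Phgdh stays at 2.44 in non-cycling cells, while the Shmt1, Shmt2, Mthfd1 and Mthfd2 intervals reach 0.

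Metastatic-like cells, which were also deeper, carried more of the members than other cells. A median of 5 of the 8 members had a UMI in a metastatic-like cell, against 2 in other high-burden cells, and all 8 were seen in 97 metastatic-like cells and 0 others, at median depths of 22195.5 and 9747 UMIs. After each cell was thinned to 3000 UMIs the medians were 1 and 0 members, and 21.9% of metastatic-like and 55.2% of other cells had none of the 8. Phgdh was at 0 UMIs in 68 of 1326 metastatic-like cells. Its level over single cells had a median of 293 CPM, quartiles of 161 and 430 CPM and a highest value of 1436 CPM. A Phgdh UMI was seen in 56.6% of thinned metastatic-like cells and in 12.0% of thinned high-burden cells like alveolar type 2 (AT2) cells (94.9% and 16.0% before thinning, at median depths of 22195.5 and 6515 UMIs). Over single metastatic-like cells the 28 member pairs had Spearman correlations between 0.043 (Psat1 with Mthfd1) and 0.392 (Phgdh with Shmt2). These cells share a library and differ in depth, and the values are given as a description.

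Metastatic-like cells were next split by division. Cells with UMIs of 3 or more of 18 mitotic genes at 3000 UMIs were called cycling (634 cells), those with 0 non-cycling (208) and the others intermediate (484), and 327 cells (24.7%) lay at 2 or 3 genes, next to the limit. In the high-burden library mitotic UMIs can also be free RNA, and its part in these calls was not tested. As a gauge, in the high-burden classes with the lowest sums of mitotic genes, 1 of 22 ciliated-like (230 CPM), 2 of 64 fibroblast-like (261 CPM), 0 of 22 club-like (336 CPM) and 3 of 50 AT2-like cells (380 CPM) had 3 or more. All 8 members were higher in cycling cells. The 4 largest ratios belonged to one-carbon enzymes, with Shmt2 at 75.1 against 32.2 CPM (log2 ratio 1.22, 0.96 to 1.50), Mthfd1 at 38.9 against 18.2 CPM (1.09, 0.74 to 1.46), Shmt1 at 23.4 against 11.1 CPM (1.07, 0.62 to 1.55) and Mthfd2 at 98.5 against 49.1 CPM (1.00, 0.79 to 1.22).

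Phgdh came next with 413 against 243 CPM (log2 ratio 0.77, 0.67 to 0.86), and then Mthfd1l with 37.5 against 22.5 CPM (0.74, 0.41 to 1.07). Psph was at 56.5 against 35.5 CPM (0.67, 0.42 to 0.94), and Psat1 had the smallest ratio with 65.7 against 50.1 CPM (0.39, 0.17 to 0.61). The interval of Psat1 lay below those of Shmt1, Shmt2, Mthfd1, Mthfd2 and Phgdh, while that of Psph overlapped most of them. Of the 8 members, 4 were 2-fold or more higher in cycling cells, where 5.80% of 10669 genes were, and 7 were 1.5-fold or more higher, where 14.2% were. The median log2 ratio was 0.88 for the members and 0.0349 for all these genes. Cycling cells were also deeper, with a median of 27649.5 UMIs against 17491. After thinning every cell to 3000 UMIs the members' median was 0.90.

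**Figure D2:**
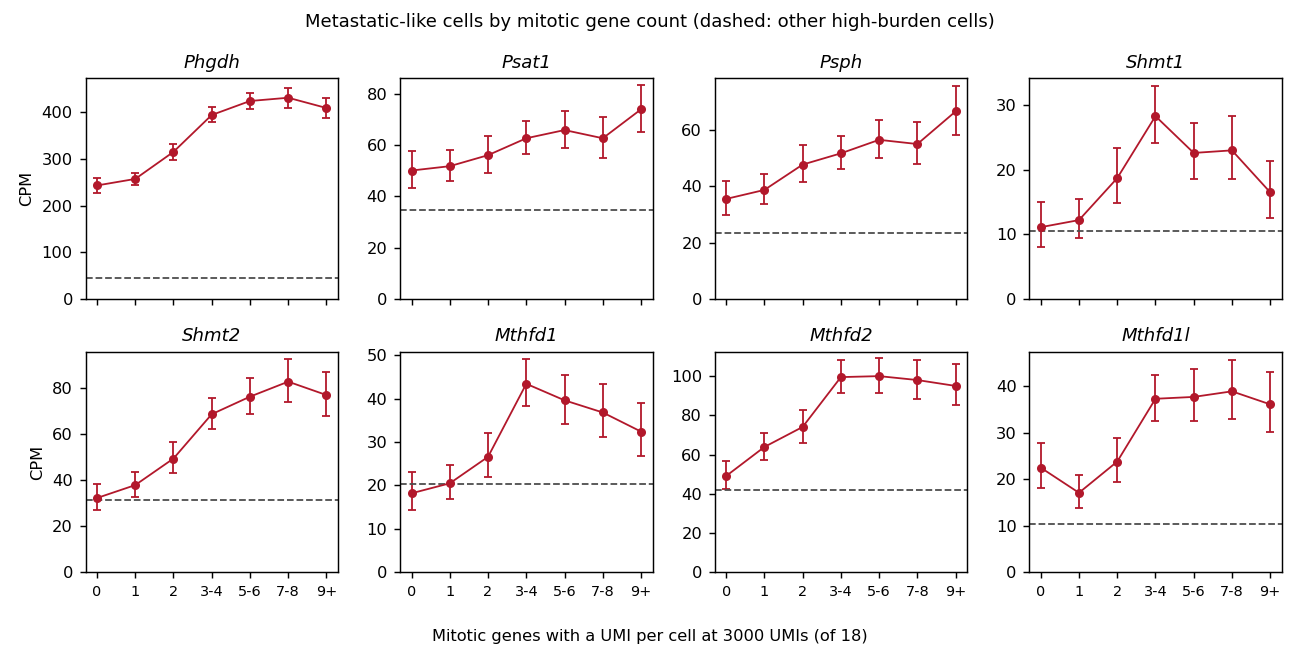
CPM of each gene (points, with 95% Poisson intervals as bars) in metastatic-like cells grouped by how many of 18 mitotic genes had a UMI at 3000 UMIs per cell, from 0 (208 cells) to 9 or more (108 cells). The dashed line is the level in the other 1357 gated high-burden cells. Shmt1 and Mthfd1 are highest at 3 to 4 mitotic genes (28.3 and 43.4 CPM), and Psat1 and Psph at 9 or more (74.0 and 66.6 CPM).

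The members differed in where along this scale they were highest. The cytosolic enzymes Shmt1 and Mthfd1 had their highest values at 3 to 4 mitotic genes, with 28.3 CPM (24.2 to 32.9) and 43.4 CPM (38.3 to 49.0). For both enzymes the interval at 5 to 6 mitotic genes overlapped this one (18.6 to 27.3 and 34.2 to 45.5 CPM). At 9 or more mitotic genes they were at 16.5 CPM (12.5 to 21.3) and 32.4 CPM (26.8 to 39.0), with intervals that were apart for Shmt1 and overlapped for Mthfd1. Psat1 and Psph had their highest values at 9 or more, with 74.0 and 66.6 CPM, although the intervals of neighbouring groups overlapped. Phgdh stood between 394 and 431 CPM in all groups with 3 or more. Splitting the cells by S-phase genes instead (307 cells with 3 or more of 18 against 418 with 0) gave log2 ratios of 1.26 (0.93 to 1.60) for Shmt1 and 1.03 for Mthfd1. With that split Psat1 had a ratio of 0.17 (−0.01 to 0.35), an interval that overlaps the one from mitotic genes. Of the 418 cells with 0 S-phase genes, 107 (25.6%) had 3 or more mitotic genes and so were not a non-dividing group.

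Non-cycling metastatic-like cells were then set beside all other gated high-burden cells. Phgdh remained 5.43-fold higher (log2 ratio 2.44, 2.30 to 2.59), Mthfd1l 2.20-fold (1.14, 0.74 to 1.52), Psph 1.51-fold (0.59, 0.30 to 0.88) and Psat1 1.46-fold (0.54, 0.30 to 0.78). For Shmt1, Shmt2, Mthfd1 and Mthfd2 the log2 ratios were 0.08, 0.05, −0.16 and 0.23, with intervals that included equal levels. A median-of-ratios scaling would lower all 8 ratios by 0.21. Of the comparison cells, 21.1% had 3 or more mitotic genes.

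The wider pathway was described by gene lists, counting genes with at least 50 UMIs over both pools. Over all 12599 such genes, 13.4% were 2-fold or more higher in metastatic-like than in other high-burden cells and 20.8% lower. Of 7 mitochondrial folate companions, 3 were higher by that measure and 0 lower. They were Aldh1l2 (4.22 against 0.80 CPM), Mthfd2l, a paralog of Mthfd2 (31.0 against 15.0 CPM), and Gcsh of the glycine cleavage system (87.2 against 43.4 CPM). Of 11 genes of cytosolic folate and thymidylate metabolism, 2 were higher, among them the folate carrier Slc19a1 (18.3 against 8.45 CPM). In the same list 5 were lower, among them the folate receptor genes Folr1 (0.22 against 2.95 CPM) and Folr2 (1.59 against 29.0 CPM).

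Genes of the amino acid response that ATF4 is known to drive gave 5 higher and 0 lower of 14. They were led by Asns, asparagine synthetase (68.4 against 13.9 CPM, log2 ratio 2.30, 2.10 to 2.51), Chac1 (2.01) and Trib3 (1.94). Of 11 aminoacyl-tRNA synthetases in that response 2 were higher, Sars (161 against 73.9 CPM) and Tars (57.1 against 28.2 CPM), and 0 lower. In the methionine cycle and transsulfuration 4 of 9 were higher, led by Cth (2.27) and Mtap (2.23), and Mtr, methionine synthase, was lower (0.97 against 4.56 CPM). Of 12 purine synthesis genes 1 was higher (Gmps, 70.7 against 33.4 CPM) and 0 lower. None of 9 transport genes was 2-fold higher, and the 2 that were lower were the cystine carrier Slc7a11 (2.34 against 13.2 CPM) and Slc7a10 (1.69 against 7.44 CPM). Of 14 glycolysis genes 4 were higher, and of 7 regulators 0 were higher and 1 lower (Nfe2l2, 64.0 against 139 CPM).

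Between cycling and non-cycling metastatic-like cells the lists ordered otherwise, where 5.80% of all genes were 2-fold or more higher and 3.29% lower. In the cytosolic folate list 3 of 7 genes were past 2-fold, among them Tyms, thymidylate synthase (111 against 30.4 CPM, log2 ratio 1.87), and Slc19a1 (1.41). Of 12 purine genes 2 were past 2-fold, Pfas (1.48) and Gart (1.26). The ATF4 list had 0 of 14 higher and 3 lower in cycling cells, with Nupr1 at 125 against 617 CPM and Ddit4 at 60.1 against 135 CPM. The genes that led this list between metastatic-like and other cells were higher in cycling cells, with log2 ratios of 0.56 (0.34 to 0.78) for Asns, 0.75 (0.05 to 1.52) for Chac1 and 0.56 (0.02 to 1.14) for Trib3, so the list did not move one way. Its median log2 ratio was −0.41, and that of the synthetase list 0.52.

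**Figure D3:**
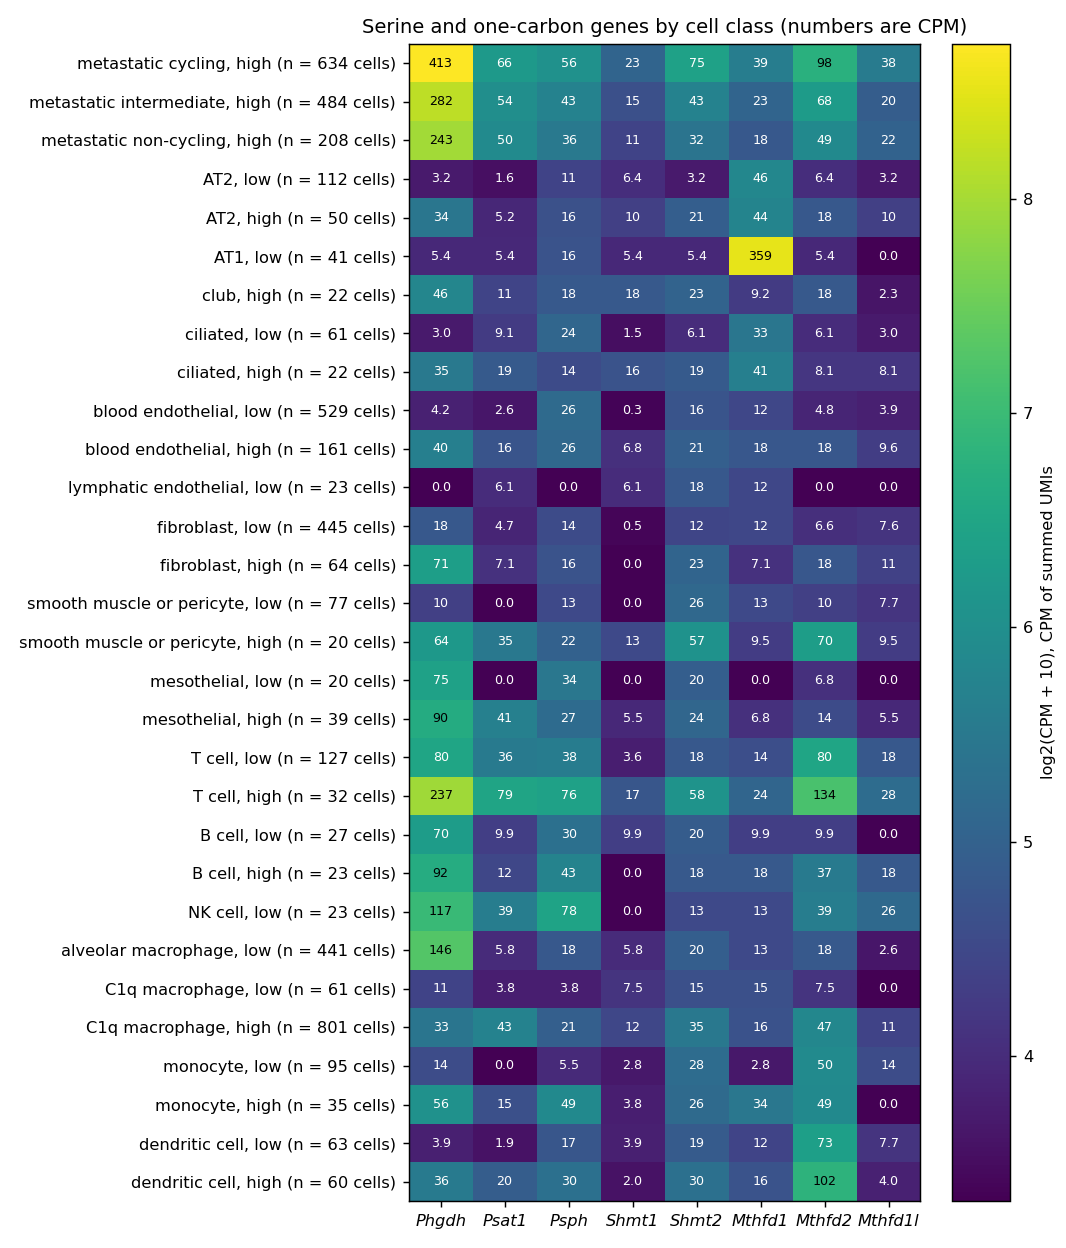
Levels of the 8 genes (columns) in each cell class and library with 20 or more cells (rows, with the number of cells). Numbers are CPM of summed UMIs and colour is log2(CPM + 10). Phgdh is brightest in metastatic-like and high-burden T cell-like cells (237 CPM), followed by low-burden alveolar macrophage-like (146 CPM) and NK cell-like cells (117 CPM). Mthfd1 is brightest in low-burden AT1-like cells.

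Lung classes were then compared by the level of each member, over the 15 low-burden and 12 high-burden classes with at least 20 cells. Counts were small, with 7 to 360 UMIs of all members together in a low-burden class, and most neighbours in the order of levels did not differ beyond their counting error. At low burden Phgdh ranged from 0 (lymphatic endothelial-like) to 146 CPM, with a median of 11.3 CPM. The high classes were alveolar macrophage-like (146 CPM, 128 to 167), NK cell-like (117 CPM, 53.4 to 222), T cell-like (79.8 CPM, 58.0 to 107), mesothelial-like (75.2 CPM, 37.5 to 135) and B cell-like cells (69.6 CPM, 28.0 to 143). Below them followed fibroblast-like cells with 18.0 CPM, and this was the single step between neighbours that exceeded counting error. AT2-like, ciliated-like, dendritic cell-like and blood endothelial-like cells lay between 3.03 and 4.17 CPM.

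Alveolar macrophage-like cells had the highest low-burden level of Phgdh, while their levels of Psat1 and Psph lay close to the medians over classes (4.74 and 17.3 CPM). Their 441 low-burden cells held 229 UMIs of Phgdh, 9 of Psat1 (5.76 CPM, 2.63 to 10.9) and 28 of Psph (17.9 CPM, 11.9 to 25.9). A Phgdh UMI was found in 35.2% of thinned alveolar macrophage-like cells and in 1.87% of thinned low-burden AT2-like cells (36.5% and 1.79% before thinning, at median depths of 3190 and 5396.5 UMIs). The 219 of these cells with 0 mitotic genes had Phgdh at 131 CPM (109 to 157) and Psat1 at 3.31 CPM, and the 20 with 3 or more had Phgdh at 308 CPM (200 to 455) and Psat1 at 61.7 CPM (20.0 to 144). At high burden only 4 cells were left in the class, too few for a level.

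T cell-like cells carried both enzymes. At low burden Phgdh was at 79.8 CPM, Psat1 at 36.3 CPM (22.2 to 56.0) and Mthfd2 at 79.8 CPM (58.0 to 107). At high burden these were 237 CPM (184 to 300), 79.0 CPM (50.1 to 119) and 134 CPM (95.3 to 183), with 32 cells. The high-burden T cell-like class was the one lung class in which no member was 1.5-fold or more below the metastatic-like level, where 43.5% of 11321 genes were. Phgdh was just short of that limit at 1.49-fold, and Shmt1, Mthfd1 and Mthfd1l had 5, 7 and 8 UMIs in these T cell-like cells. The median log2 ratio of metastatic-like over T cell-like was 0.09 for the members and 0.36 for all these genes. Mthfd2 was lower in metastatic-like cells there (−0.69, −1.14 to −0.19), and Phgdh higher (0.57, 0.23 to 0.93). Mitotic genes moved with these levels. Their sum was 876 CPM in low-burden and 2161 CPM in high-burden T cell-like cells, and 11.2% and 43.8% of thinned cells had 3 or more. Within the low-burden library, the 9 such cells had Phgdh at 255 CPM (158 to 390) and the 62 cells with 0 mitotic genes 38.7 CPM (19.3 to 69.2).

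Dendritic cell-like and monocyte-like cells were among the highest low-burden classes for Mthfd2, whose median over classes was 7.52 CPM. In 63 dendritic cell-like cells Mthfd2 was at 73.1 CPM (51.7 to 100), while Phgdh was at 3.85 CPM (0.466 to 13.9) and Psat1 at 1.92 CPM, both under their class medians of 11.3 and 4.74 CPM, and Psph at 17.3 CPM was at its median. In 95 monocyte-like cells Mthfd2 was at 49.8 CPM (29.5 to 78.8), Phgdh at 13.8 CPM (4.50 to 32.3), Psph at 5.54 CPM and Psat1 at 0 UMIs, with an interval up to 10.2 CPM. Of the markers of these classes, 6 of 9 and 5 of 8 were highest in their own class, the lowest shares among the low-burden gates.

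Mthfd1 was the exception among the members. Its highest level was in AT1-like cells, the flat cells of gas exchange, with 67 UMIs in 41 low-burden cells (359 CPM, 278 to 456) and 57 UMIs in 15 high-burden cells (386 CPM, 292 to 500), the latter under the minimum of 20 cells. AT2-like cells followed with 46.3 CPM (31.0 to 66.6) and 44.0 CPM (25.6 to 70.4), and all other low-burden classes with 20 or more cells lay between 0 and 33.4 CPM. The other 7 members had between 0 and 3 UMIs each in low-burden AT1-like cells. Akap5, the gene that starts 5087 bases after the annotated end of Mthfd1 on the same strand (chr12:76324891-76334153), was also high there, with 610 CPM in low-burden and 129 CPM in high-burden AT1-like cells, against 4.79 and 5.17 CPM in AT2-like cells. Whether reads from one gene were counted for the other was not tested. Naming classes by clusters gave 218 CPM of Mthfd1 in low-burden AT1-like cells.

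To ask how the genes differed between burdens outside the metastatic class, the 1357 gated high-burden cells were compared with 2165 low-burden cells. Psat1 differed most, with 64 UMIs (5.68 CPM, 4.37 to 7.25) at low and 514 UMIs (34.5 CPM, 31.5 to 37.6) at high burden, a log2 ratio of 2.60 (2.22 to 3.00). Shmt1 (3.02 to 10.5 CPM, 1.80), Mthfd2 (15.9 to 41.8 CPM, 1.40) and Shmt2 (15.1 to 31.2 CPM, 1.05) were also 2-fold or more higher. These 4 of 8 stand beside 6.66% of 12579 genes. Shmt1 fell under 2-fold as a median over classes (0.71), and Shmt2 when cells were thinned (0.73), weighed the same (0.82) or taken as a median over classes (0.97). Mthfd1l had a ratio of 0.95, Phgdh of 0.44 (0.25 to 0.62) and Psph of 0.27, and Mthfd1 was at 20.8 and 20.4 CPM (−0.03, −0.28 to 0.22). The Phgdh value depended most on the pooling, from 0.09 when cells weighed the same to 2.03 as a median over classes. The median was 1.00 for the members and −0.32 for all genes, and a median-of-ratios scaling would raise every ratio by 0.28. The mix of classes differs between the pools, with 441 and 4 alveolar macrophage-like cells and 61 and 801 cells like C1q macrophages. Levels per class were therefore compared, since fewer cells of a class and less RNA per cell cannot be told apart in a pool.

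**Figure D4:**
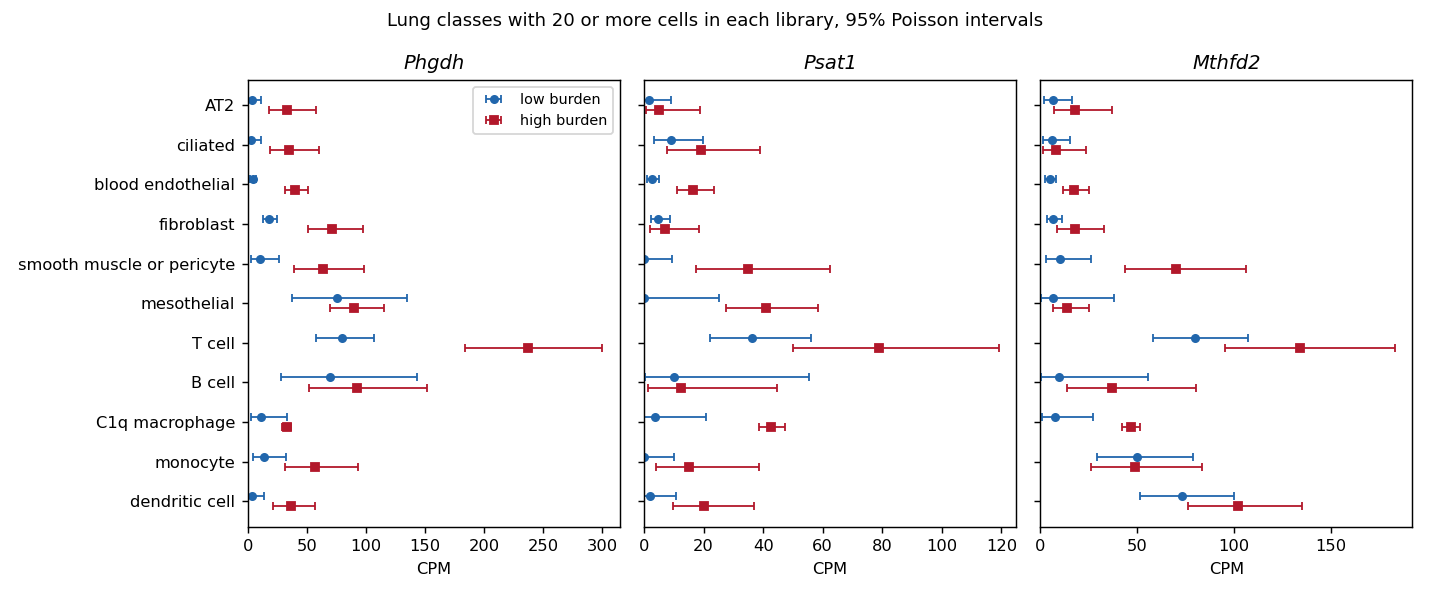
CPM of Phgdh, Psat1 and Mthfd2 (points, with 95% Poisson intervals as bars) in the 11 lung classes with 20 or more cells in both the low-burden and the high-burden library. Phgdh is higher at high burden in all 11 classes, and Mthfd2 is at like levels in monocyte-like cells. The Psat1 intervals are apart in C1q macrophage-like (3.76 and 42.7 CPM), blood endothelial-like (2.56 and 16.4 CPM), mesothelial-like, and smooth muscle or pericyte-like cells.

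C1q macrophage-like cells were the class whose cell number differed most upward between libraries. At high burden their 801 cells had Psat1 at 42.7 CPM (38.5 to 47.2), Mthfd2 at 46.8 CPM (42.4 to 51.5), Shmt2 at 34.8 CPM (31.0 to 38.9) and Phgdh at 32.9 CPM (29.2 to 36.9). The 61 low-burden cells held 17 UMIs of all members together, so their levels are loosely set. The classes were also not alike in the 2 libraries. When cells were clustered without the members, 1 cluster named C1q macrophage drew 52 of its cells from the low-burden and 37 from the high-burden lung. The remaining 3 such clusters drew 264, 157 and 387 cells from the high-burden and 1, 5 and 1 from the low-burden lung. The values below thus compare different clusters of the class. Psat1 had 378 UMIs against 1 in low-burden cells (log2 ratio 3.51, 1.02 to 8.81) and Mthfd2 414 against 2 (2.64, 0.78 to 5.69), and these were the 2 members whose intervals excluded equal levels. By point value 6 of 8 members were 2-fold or more higher, counting Mthfd1l, which had 0 UMIs at low burden, beside 19.6% of 8776 genes. The log2 ratio of Mthfd1l has a lower 95% limit of −0.34, so its direction is not set by these counts. Of 14 glycolysis genes 10 were 2-fold or more higher in the same cells, with Gapdh at 319 and 2066 CPM, and of 14 ATF4 genes, 10 of which had 50 or more UMIs, 1 was higher and 2 lower, where 11.8% of all genes were 2-fold or more lower.

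Within the high-burden C1q macrophage-like cells, Psat1, Mthfd2 and Shmt2 were higher in cells with mitotic genes, while the Phgdh interval included equal levels. The 218 cells with 3 or more mitotic genes had Psat1 at 65.8 CPM (56.7 to 76.0), and the 234 cells with 0 had it at 24.2 CPM (18.4 to 31.2), a log2 ratio of 1.44 (1.01 to 1.89). Mthfd2 was at 72.9 against 32.0 CPM (1.19, 0.81 to 1.58) and Shmt2 at 43.2 against 25.0 CPM (0.79, 0.33 to 1.25). Phgdh was at 31.1 against 37.3 CPM (−0.26, −0.70 to 0.18), and Mthfd1 at 12.4 against 17.2 CPM (−0.48, −1.17 to 0.21). The cycling split of lung classes was added after the data had been seen.

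RNA free in the droplets can add UMIs of abundant metastatic transcripts to any cell of the high-burden library. As a gauge, the 9 metastatic gate markers summed to between 7.55% and 16.2% of their metastatic-like level in the 12 other high-burden classes. The gate itself bounds this gauge, because a cell with a high share of these markers could not enter a lung class. A further 7 genes with at least 500 UMIs in metastatic-like cells and at most 2 in the low-burden library summed to between 5.37% and 25.1%. They were Tbx15, Gm12603, Saa1, Saa2, Csf3, 3300005D01Rik and Cdsn. Whether lung cells themselves express any of them at high burden was not tested, and the rule was set after the data had been seen. PYMT also met this rule (2077 and 0 UMIs) and was left out of the 7. It was at 64.9 CPM in metastatic-like and 63.4 CPM in other gated high-burden cells, so the gauges do not span every such gene. In C1q macrophage-like cells the gauges were 9.28% and 9.64%, and Phgdh was at 9.33% of its metastatic-like level. Psat1 was at 71.0% there, Mthfd2 at 56.1%, Shmt2 at 57.9% and Psph at 42.0%. In T cell-like cells the gauges were 7.55% and 5.37% and Phgdh was at 67.3%.

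**Figure D5:**
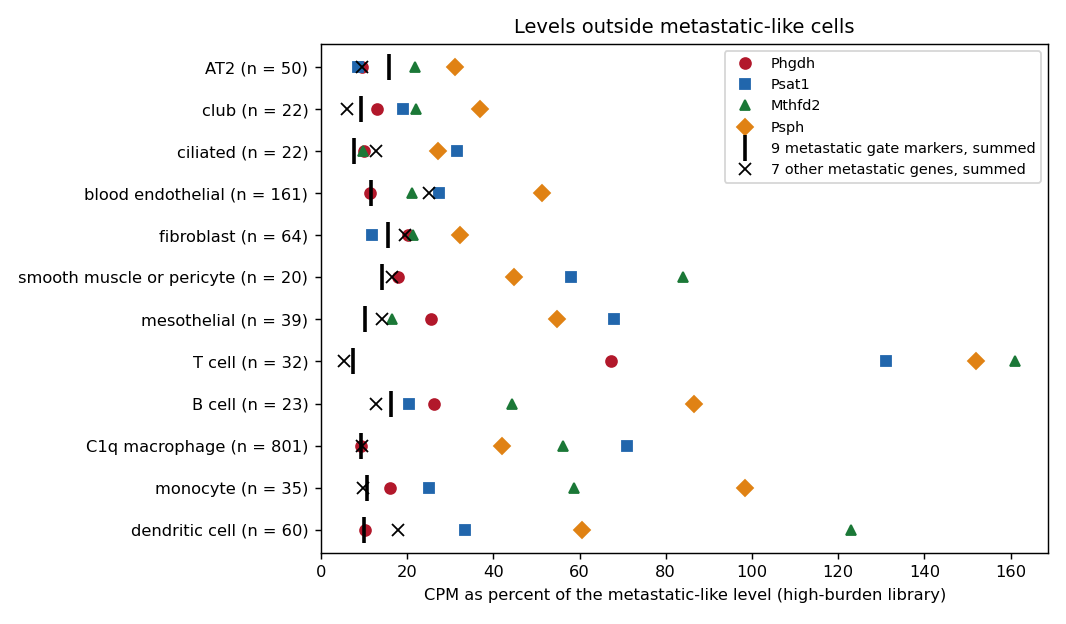
Level of Phgdh, Psat1, Mthfd2 and Psph in each high-burden lung class with 20 or more cells, as a percent of the CPM in metastatic-like cells, beside the same share of the summed 9 gate markers (bar) and of 7 other genes with metastatic expression (cross). In C1q macrophage-like cells Phgdh (9.33%) sits at the bar (9.28%) and the cross (9.64%), and in T cell-like cells it sits at 67.3%.

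Phgdh was higher at high burden, by point value, in all 11 classes measured in both libraries, with an interval above equal levels in 8 of them. In blood endothelial-like cells it went from 4.17 CPM (2.22 to 7.12) to 40.3 CPM (31.4 to 50.8), in AT2-like cells from 3.20 to 33.6 CPM, in ciliated-like cells from 3.03 to 35.2 CPM and in dendritic cell-like cells from 3.85 to 36.2 CPM. These high-burden levels were 11.4%, 9.55%, 10.00% and 10.3% of the metastatic-like level, where the gate markers were at 11.7%, 15.9%, 7.65% and 9.96%. The 7 other gauge genes were at 25.1%, 9.43%, 12.7% and 17.8% in the same classes. Fibroblast-like cells went from 18.0 CPM (12.7 to 24.7) to 71.4 CPM (51.0 to 97.2), at 20.3% of the metastatic-like level and with gauges of 15.5% and 19.5%. The part of free RNA in these differences was not tested.

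Psat1 was higher in point value in all 11 classes as well, with an interval above equal levels in 6. Beside C1q macrophage-like and T cell-like cells these were blood endothelial-like (2.56 to 16.4 CPM), dendritic cell-like (1.92 to 20.1 CPM), mesothelial-like and smooth muscle or pericyte-like cells. The last 2 had 0 UMIs at low burden and 40.9 and 34.9 CPM at high burden, with lower 95% limits of the log2 ratio of 0.61 and 1.63. At 68.0% and 58.1% of the metastatic-like level, both stood above their gauges of 10.3% and 14.1% from the gate markers. Mitotic genes moved here too, from 13.7 to 964 CPM in mesothelial-like and from 20.5 to 2181 CPM in smooth muscle or pericyte-like cells, and their part in the result was not tested. No member had an interval below equal levels in any of the 11 classes, but many low-burden counts were too small to give one. In AT2-like, ciliated-like, smooth muscle or pericyte-like, B cell-like and monocyte-like cells, 0 members had 50 UMIs over both libraries. Low-burden C1q macrophage-like cells held 0 to 4 UMIs of each. The share of all genes with such intervals was not counted, so nothing is read from their absence.

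Mthfd2 was higher in 10 of 11 classes, with an interval above equal levels in 5. In smooth muscle or pericyte-like cells it went from 10.3 to 69.9 CPM (log2 ratio 2.77, 1.21 to 4.76). In dendritic cell-like cells, where it was already high, it was at 73.1 and 102 CPM (0.49, −0.15 to 1.13), and in monocyte-like cells at 49.8 and 49.0 CPM (−0.03, −1.18 to 1.08). Psph, Shmt1, Shmt2, Mthfd1 and Mthfd1l had intervals above equal levels in 2, 2, 2, 1 and 1 classes.

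To find genes with a like pattern, log2(CPM + 10) over 30 pools of cells (27 lung class pools and the cycling, intermediate and non-cycling metastatic-like pools) was correlated with the mean profile of the members over 13635 genes. The closest were Cenpw, a kinetochore gene (Pearson r 0.932), Eif2s1 (0.902), Ran (0.890), Uchl3 (0.888), 2700094K13Rik (0.884), Top2a (0.883), Hells (0.879), Phb2 (0.878), Tomm20 (0.878) and H2afz (0.877). Top2a is one of the 18 mitotic genes, and Hells one of the 18 S-phase genes, that split the metastatic-like cells. The genes closest to Phgdh alone were Nme1 (0.855), Elovl6 (0.819) and Cenpw (0.815). Those closest to Psat1 were Ran (0.881), Erh (0.881) and Cenpw (0.866), and those closest to Mthfd2 were H2afz (0.901), the S-phase gene Mcm5 (0.861) and Rbm3 (0.844). Between members r reached 0.74 for Phgdh with Psat1, 0.73 for Phgdh with Psph and 0.71 for Shmt2 with Mthfd2. Mthfd1 stood apart, with r between −0.29 and 0.25 to the others and 0.141 to the mean profile. The pools come from 2 libraries, share their depth and free RNA and are not independent, so these values describe the pattern only.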

How the data were processed

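Single-cell RNA sequencing of 2 lungs was analysed. The authors processed the reads with Cell Ranger 2.0.2 on mm10 with PYMT added, and the deposited values are raw UMI counts per gene and cell, with no normalization. Whether they precede an aggregation of the libraries that the study's methods name is not stated. UMIs are read at transcript ends, so a gene's level was compared between cells and not with that of another gene.

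The members, gene lists and markers were chosen with earlier results of these data known. The gate's scoring rule was set after cell numbers had been seen. Cells with 1000 to 7000 genes and at most 10% mitochondrial UMIs (the limits of the study) were kept. A marker counted in a cell where its CPM reached its mean over kept cells. A cell took the class with the highest share of markers if it had at least 3 and that share was 1.5 times or more that of any class of another compartment. Trac, Trbc2 and Ighm, listed as markers, were absent. Class names carry "-like" and may differ from the study's. Doublets were kept, because Scrublet marked 0.121% and 0.264% of cells, a yield at which the caller has not worked.

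UMIs were summed per class and library and scaled to 1000000 (CPM). Intervals are exact at 95% (Poisson for counts, conditional binomial for ratios, Clopper-Pearson for shares) and cover counting error only. Named genes were all members, up to the 3 highest and 2 lowest ratios of each pathway list, and the 10 genes closest to the mean profile with 3 each for Phgdh, Psat1 and Mthfd2. Genes needed 50 UMIs over both pools. Values of 1 listed gene are not reported here. Thinning to 3000 UMIs left out 607 low-burden and 0 high-burden cells. Ratio and interval code was tested on simulated data. Python 3.11.15, NumPy 2.4.6, SciPy 1.17.1, pandas 2.3.3 and scanpy 1.11.5 were used.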

Additional observations from a re-analysis of the deposited data

Results flagged for a closer look

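The 350 high-burden cells that passed no gate enter none of the comparisons above. In them 7 of the 8 members were higher than in the 308 ungated low-burden cells, with intervals that did not overlap. The share of all genes that differed in this way was not counted. The members were also chosen for their levels in metastatic cells, so nothing is read from that count. Phgdh stood at 190 CPM against 14.9, Psat1 at 38.6 against 3.98 and Psph at 36.4 against 17.4. Shmt1 was at 11.4 against 1.99 CPM, Shmt2 at 38.6 against 14.4, Mthfd2 at 46.3 against 29.9 and Mthfd1l at 17.1 against 4.98. In these high-burden cells the metastatic gate markers summed to 52.1% of their metastatic-like level and the 7 other gauge genes to 34.0%. Phgdh was at 53.8% of its own level, and 20.0% of the cells had 3 or more mitotic genes. What these cells are was not tested.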

How the results depend on the processing

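The median log2 ratio of the members was 0.97 for metastatic-like against other high-burden cells. It moved to 0.63 with metastatic-like cells below their median depth and to 1.50 when the other classes weighed the same. Of the 10 genes closest to the mean profile, 6 were shared with a Spearman ranking. The causes were not tested. The other 32 alternatives for the main values stayed within counting error, those for cycling against non-cycling cells between 0.77 and 0.92, for high against low burden between 0.77 and 1.28, and for the median class level between 147 and 173 CPM. Of 263 alternatives for single members and levels, 57 moved and 0 reversed. A stricter gate factor of 2 was chosen after seeing the data. Clusters gave no separate dendritic, B, NK, monocyte, lymphatic or club class. No paired analysis was possible because each group has 1 library. Small low-burden counts are a further limit, since a class there held as few as 7 member UMIs (23 lymphatic endothelial-like cells).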
